A study of Mus musculus with 6 samples.

Results

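The members described here are the 4 mature strands of a pair of mouse miRNA hairpins, miR-455 and miR-140, listed as mmu-miR-455-5p, mmu-miR-455-3p, mmu-miR-140-5p and mmu-miR-140-3p. They are 4 of the 778 miRNAs in the table analysed here. They were chosen by name, because both hairpins are known from cartilage, and with their difference between the groups already known, so every difference between the groups given for them is a description without a test. The cells were primary mesangial cells of mouse, which hold the capillaries of the kidney glomerulus together and can contract, cultured in 25.5 mM glucose and 20% serum and used between passages 3 and 6. One group of 3 libraries is labelled Control, and the TGF-beta1 group (3 libraries) received transforming growth factor β1, a cytokine that drives fibrosis, at 10 ng/ml for 72 h. All 6 libraries come from cells in high glucose, and the sources do not say whether the replicates were separate isolations of cells or separate dishes, so the spread between them may be partly technical.

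A miRNA hairpin is cut by Dicer into a duplex of a 5p and a 3p strand, and usually one of them is loaded into an Argonaute protein and guides it to mRNAs through its seed, bases 2 to 8 of the strand. Mir455 and Mir140 are both transcribed within protein-coding hosts, Col27a1, which encodes a fibrillar collagen, and Wwp2, which encodes a ubiquitin ligase. In chondrocytes Mir140 is induced by Sox9, the master transcription factor of cartilage, which also drives Col27a1, and mice without Mir140 have short long bones and early degeneration of joint cartilage. TGF-β signalling is itself needed for cartilage to form, and strands of both hairpins have been linked to its Smad pathway in those cells.

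In the GENCODE vM1 annotation of the NCBIM37 genome, Mir455 spans 82 bases of chromosome 4, with its start at 62917885 and its end at 62917966, on the plus strand. It lies in intron 10 of the Col27a1 transcript with the most exons, 127 bases before the next exon. Mir140 spans 70 bases of chromosome 8, with its start at 110075144 and its end at 110075213, also on the plus strand, within Wwp2 (intron 15, 7 or 16 depending on the transcript), 963 bases before the next exon. Both hairpins thus lie on the same strand as their host and within an intron of it. For the transcripts Col27a1-005, Col27a1-006 and Col27a1-007 no intron holds Mir455, and overlap with their exons was not examined. RefSeq holds mature sequences, on GRCm38.p6, for 3 of the 4 members. They are printed because the seed decides which mRNAs a strand can pair with, and the capitals mark that seed:
miR-455-5p: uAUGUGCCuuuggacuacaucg
miR-455-3p: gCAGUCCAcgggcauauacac
miR-140-3p: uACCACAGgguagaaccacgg

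The 3 strands carry 3 different seeds, so the arms of miR-455 form no seed family with each other or with miR-140-3p. On chromosome 4 of GRCm38.p6 miR-455-5p runs from 63256867 to 63256888 and miR-455-3p from 63256904 to 63256924, with 15 bases of loop between them. MiR-140-3p runs from 107551288 to 107551308 on chromosome 8. Of the 1678 other mouse mature sequences compared, 0 came within 2 mismatches of any of these 3 strands, the closest differing at 7 or 8 bases. The seed of miR-455-5p is shared with miR-5129-3p and that of miR-140-3p with miR-497b, neither of which is among the rows analysed here under that name. No other row of the table had the same reads in all 6 libraries as any of the 4 members.

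Values are in RPM, that is, reads of the miRNA in each 1000000 reads of the total by which the authors divided that library. They are not scaled by length, and the strands with a known sequence here have 21 or 22 bases. The library totals, recovered from the values, ran from 16478281 to 20169254 reads, so that 1 read was worth 0.0496 to 0.0607 RPM. The rows of the table held 79.5% to 79.8% of the total in Control and 71.6% to 73.1% in TGF-beta1. The median log2 change of the 408 miRNAs tested was -0.17 on this scale, so a change is also given relative to that median. The labelled cell type was checked against 4 miRNAs of contractile mesenchymal cells (miR-143-3p, miR-145-5p, miR-199a-3p, miR-214-3p), which were all present, with a summed level of 2575 to 2946 RPM in Control and 2603 to 3066 RPM in TGF-beta1. Most of that sum was miR-143-3p, with means of 2029 RPM in Control and 2052 RPM in TGF-beta1, while miR-214-3p had means of 8.55 and 7.17 RPM. Among other cell types, 5 epithelial miRNAs summed to 22.2 to 25.4 RPM in Control and 1.67 to 2.53 RPM in TGF-beta1. The 3 of them that were tested (miR-200a-3p, miR-200b-3p and miR-429-3p) were called lower by the thresholds given below, where 7.84% of all 408 tested miRNAs were. MiR-200c-3p and miR-141-3p of that list were at 0 in most libraries. The 3 markers of proximal tubule summed to 293.1 to 307.7 and 342.2 to 365.5 RPM, hepatocyte miR-122-5p stood at 24.2 to 27.3 and 13.1 to 13.9 RPM, neuronal miR-124-3p at 1.09 to 1.74 and 0.351 to 0.892 RPM, and striated muscle markers summed to 3440 to 3646 and 3285 to 3465 RPM, nearly all of it miR-206-3p. Endothelial miR-126-3p was at 0.0992 RPM or less, and of the blood markers miR-451, the older name of miR-451a, stood at 0.114 to 0.360 RPM in Control and 0 to 0.0585 RPM in TGF-beta1, while miR-142-3p and miR-223-3p were not among the rows analysed here. What part these movements have in the values of the members was not tested.

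The hairpins did not move together. Both strands of miR-455 were close to 5 times as abundant in the TGF-beta1 libraries as in Control, whereas neither strand of miR-140 was higher beyond the spread of its libraries. In RPM miR-140-3p was lower, by an amount that depended on the scaling. The pair also differed in level by orders of magnitude, since miR-140-3p was among the most abundant miRNAs of these cells and miR-455 among the scarce ones. In RNA from whole cultures, more of a strand per cell and more cells that carry it cannot be told apart.

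MiR-455-3p had 1.46, 1.44 and 1.13 RPM in Control replicates 1 to 3 (24, 24 and 20 reads). In the TGF-beta1 replicates it had 6.25, 6.81 and 6.73 RPM (126, 122 and 115 reads). Every treated library lay far above every Control library, and the libraries within a group were close to each other. The mean went from 1.34 ± 0.181 to 6.60 ± 0.305 RPM (SD, n = 3 each), and the ratio of means was 4.91. By the summed reads the ratio was 4.91, with an exact 95% interval of 3.78 to 6.46 that covers counting error only. On the log2(RPM + 1) scale the change was 1.70 ± 0.13 (SE), or 1.87 relative to the median of all tested miRNAs.

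MiR-455-5p, the strand from the other side of the same hairpin, had 0.364, 1.02 and 0.624 RPM in the Control replicates (6, 17 and 11 reads). It had 3.62, 3.01 and 3.39 RPM in the TGF-beta1 replicates (73, 54 and 58 reads). The groups again did not overlap, although Control replicate 1 was low and the Control values spread over a wider relative range than those of miR-455-3p. The mean went from 0.669 ± 0.330 to 3.34 ± 0.306 RPM (SD, n = 3 each), and the ratio of means was 5.0, with an exact 95% counting interval of 3.46 to 7.45 around a ratio of summed reads of 5.01. Its change of log2(RPM + 1) was 1.40 ± 0.17 (SE), or 1.57 relative to the median.

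The strands of miR-455 therefore differed by the same factor between the groups, within counting error. The smaller log2 change of miR-455-5p came with the pseudocount of 1, which weighs more on a value near 0.7 RPM: with a pseudocount of 0.1 the changes were 2.22 ± 0.17 for miR-455-3p and 2.25 ± 0.33 for miR-455-5p (SE). On the log2(RPM + 1) scale miR-455-3p ranked 1st from the top and miR-455-5p 4th among the 408 tested miRNAs, and by the ratio of means they ranked 6th and 5th.

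MiR-140-3p had 8233, 8127 and 7269 RPM in the Control replicates (135668, 135572 and 128113 reads). It had 6348, 5974 and 5837 RPM in the TGF-beta1 replicates (128038, 107017 and 99730 reads). All treated libraries lay below all Control libraries, with Control replicate 3 the nearest to them. The mean went from 7877 ± 528.5 to 6053 ± 264.8 RPM (SD, n = 3 each), and their ratio was 0.768. The change of log2(RPM + 1) was -0.38 ± 0.06 (SE), which is only -0.20 relative to the median of all tested miRNAs, and 136 of the 408 had a more negative change. It was negative under each scaling tried, but shrank to -0.16 ± 0.09 (SE) with median-of-ratios scaling.

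MiR-140-5p, the strand on which many studies of this hairpin in cartilage centre, was nearly absent. It had 0.486, 0.600 and 0.794 RPM in the Control replicates (8, 10 and 14 reads) and 0.595, 0.670 and 0.527 RPM in the TGF-beta1 replicates (12, 12 and 9 reads). The groups overlapped fully, with the treated values inside the range of the Control values. The mean was 0.626 ± 0.156 RPM in Control and 0.597 ± 0.0716 RPM in TGF-beta1 (SD, n = 3 each). The ratio of summed reads was 0.949, and its exact 95% counting interval of 0.566 to 1.59 leaves out a change of the size seen for either strand of miR-455. The change of log2(RPM + 1), -0.02 ± 0.12 (SE), turned positive with TMM (0.032), median-of-ratios (0.057) and row-sum (0.030) scaling and without Control replicate 3 (0.050) or TGF-beta1 replicate 3 (0.0093).

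**Figure D1:**
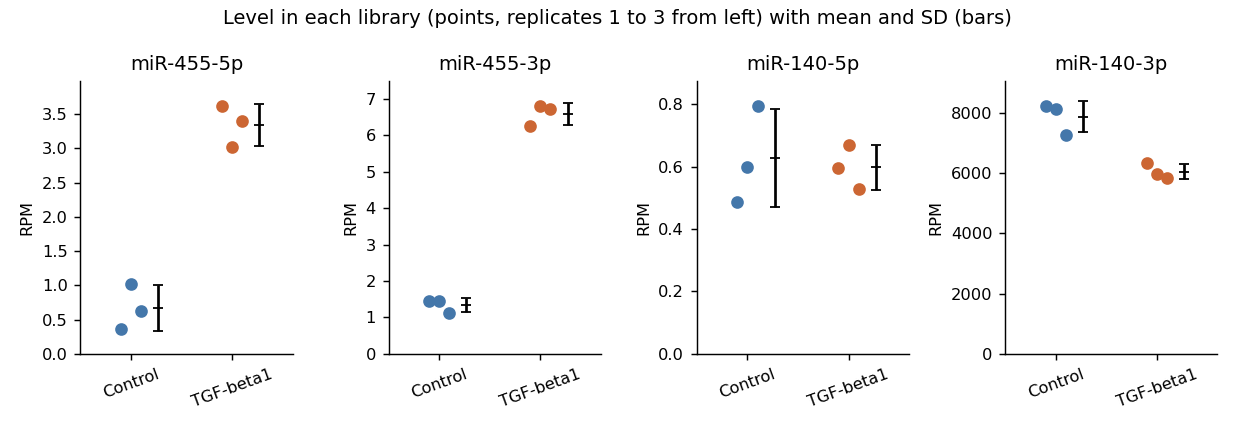
Level in RPM (vertical axes, starting at 0, a separate scale for each strand) of miR-455-5p, miR-455-3p, miR-140-5p and miR-140-3p in the Control and TGF-beta1 libraries, with points for replicates 1 to 3 from left to right and a bar for the mean and SD (n = 3). Both miR-455 strands sit higher in all 3 treated libraries, miR-140-5p overlaps between the groups and miR-140-3p sits lower in all 3 treated libraries.

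Across all tested miRNAs, 4.41% were called higher and 7.84% lower by limma, with thresholds of 0.05 on the adjusted p and of 1 on the size of the log2 change (18 and 32 miRNAs, or 25 and 24 with TMM scaling). The 18 called higher include both strands of miR-455, which were chosen with this contrast known, so their place there is no test of them. Neither strand of miR-140 was called. With a pseudocount of 10, where their log2 changes were 0.55 and 0.32, or with a threshold of 2 on the log2 change, neither strand of miR-455 was called. Treated and Control libraries were fully separated for 56.9% of the tested miRNAs, 20.8% with the treated libraries higher and 36.0% with them lower. Among the members, 2 of 4 were separated upwards and 1 of 4 downwards. Since this comparison was known when the members were chosen, these shares are given for scale alone. All 4 members passed the filter on low reads, miR-140-5p narrowly, with at least 10 reads in 4 of the 6 libraries. MiR-455-5p had 6, 17 and 11 reads in Control and 73, 54 and 58 in TGF-beta1, so it passed through the group where it is high.

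**Figure D2:**
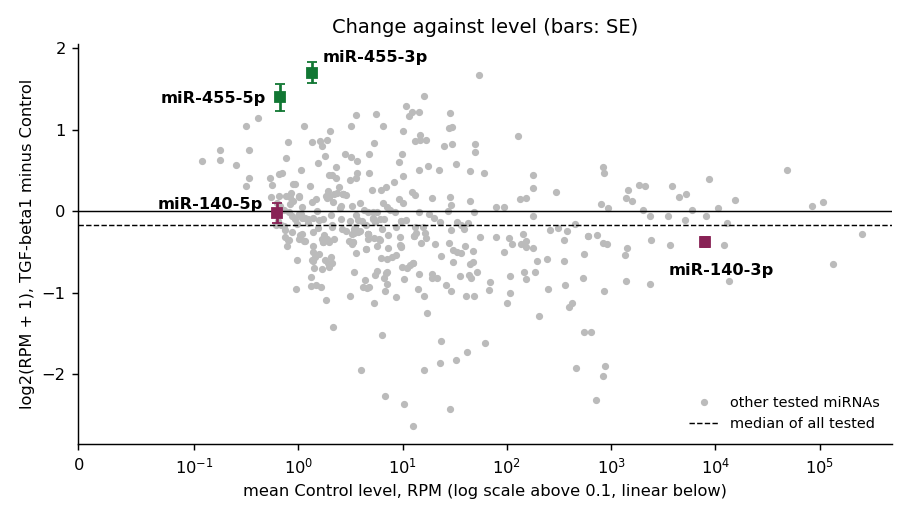
Change of log2(RPM + 1), TGF-beta1 minus Control, against the mean Control level in RPM (log scale above 0.1 RPM) for the 408 tested miRNAs in grey and the 4 members as squares with their SE. The miR-455 strands lie at the upper edge among scarce miRNAs, at 1.70 and 1.40, while miR-140-3p lies near the dashed line that marks the median change of -0.17.

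The errors of the 4 members were of different kinds. For miR-455-3p the coefficient of variation between libraries was 13.5% in Control and 4.62% in TGF-beta1, below the 21.0% and 9.09% that counting alone gives at these reads. For miR-140-5p it was 24.9% and 12.0%, against 30.6% and 30.2% from counting. MiR-455-5p varied by 49.3% in Control, against 29.7% from counting, and by 9.15% in TGF-beta1, against 12.7%. MiR-140-3p varied by 6.71% and 4.37%, many times its counting error of 0.274% and 0.299%. The spread of the scarce strands was thus near or below counting error, except for miR-455-5p in Control, and that of miR-140-3p was far above it. Each value rests on 3 libraries, and for miR-455-5p in Control on 6, 17 and 11 reads, so an excess over counting error is uncertain there and was not tested.

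The arms of miR-140 were in very unequal balance and those of miR-455 were not. In miR-140 the 3p strand had 16959, 13557 and 9151 reads for each 5p read in the Control replicates, and 10670, 8918 and 11081 in the TGF-beta1 replicates. These ratios overlapped between the groups, with means of 13222 ± 3915 and 10223 ± 1149 (SD, n = 3 each). Because only 8 to 14 reads of the 5p strand stand under each ratio, the counting intervals are wide: over the summed reads the ratio was 12480 (8840 to 18246) in Control and 10145 (7224 to 14738) in TGF-beta1 (exact 95% intervals).

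In miR-455 the 3p strand was the more abundant by a small factor. It had 4.0, 1.41 and 1.82 reads for each 5p read in the Control replicates and 1.73, 2.26 and 1.98 in the TGF-beta1 replicates. The highest ratio rests on the 6 reads of miR-455-5p in Control replicate 1. Over the summed reads the ratio was 2.0 (1.31 to 3.11) in Control and 1.96 (1.64 to 2.36) in TGF-beta1 (exact 95% intervals). The balance of the strands thus differed by less than counting error. Both were scarce, and in Control miR-455-5p had only 6, 17 and 11 reads, close to the 8, 10 and 14 of miR-140-5p.

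Among the 127 hairpins whose arms each had at least 10 reads in both groups, the more abundant arm had a median of 7.97 times the reads of the other in Control. MiR-140 was the 3rd most unequal of them in either group, after let-7b and let-7e, and the most unequal of the 60 in which the 3p arm had more reads in Control. MiR-455 ranked 103rd in Control, among the more balanced hairpins. Both arms were listed for 263 hairpins. The minimum of 10 reads leaves out those with an almost empty arm, which can be very unequal, so these ranks hold among the 127 alone. Between the groups the log2 arm ratio moved by -0.03 in miR-455 and by -0.30 in miR-140, against a median size of 0.44 over the 127 hairpins.

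**Figure D3:**
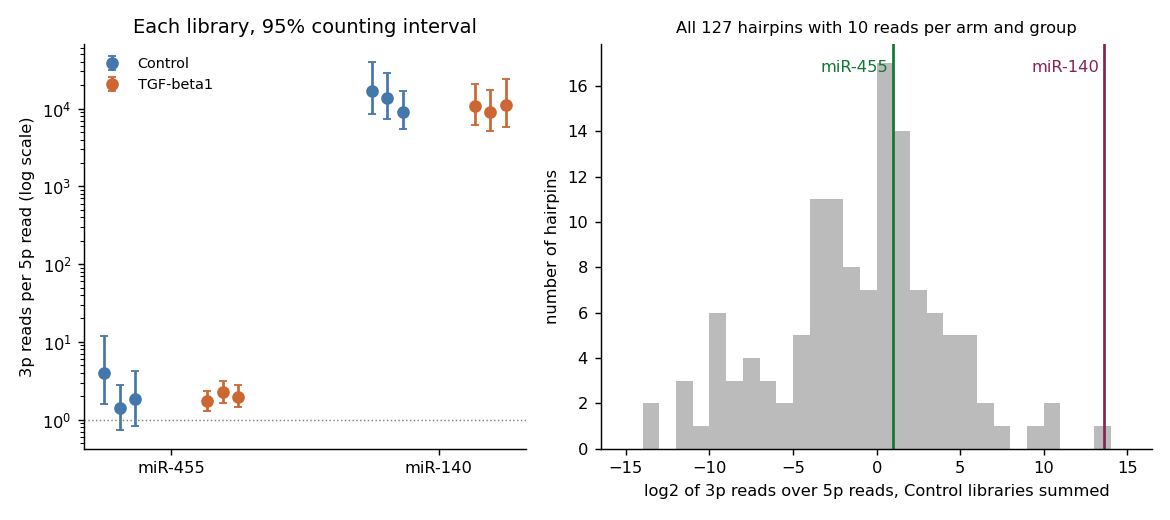
Left, reads of the 3p strand for each read of the 5p strand (log scale) in each library, with exact 95% counting intervals and a dotted line at equal reads. Right, the number of hairpins by log2 of 3p over 5p reads in the summed Control libraries, for the 127 hairpins paired by name. Lines mark miR-455 (1.0) and miR-140 (13.6), which stands at the far 3p end of these 127.

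In the order of levels in Control, miR-140-3p ranked 13th of 778 miRNAs, miR-455-3p 343rd, miR-455-5p 397th and miR-140-5p 403rd. The libraries of miR-455-3p lay above those of miR-455-5p, but miR-455-5p and miR-140-5p overlapped, so their order in Control is not resolved. In TGF-beta1 the ranks were 13th, 200th, 260th and 390th, and all 4 members were separated from each other. The next miRNA above miR-140-3p in Control was let-7g-5p, at 8188 ± 325.9 RPM (SD, n = 3), which overlapped with it, and the next below was miR-103-3p, at 5968 ± 276.1 RPM (SD, n = 3), which did not. In TGF-beta1 the libraries of miR-140-3p and miR-103-3p (6039 ± 211.8 RPM, SD, n = 3) overlapped and those of the next above, let-7i-5p (7585 ± 1360 RPM, SD, n = 3), stood apart. Both neighbours of each of the 3 scarce members overlapped with it in either group. In Control these were miR-7a-1-3p and miR-1247-5p for miR-455-3p, miR-132-5p and miR-5126 for miR-455-5p, and miR-1965 and miR-377-5p for miR-140-5p.

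Summed over both arms, miR-455 had 1.82, 2.46 and 1.76 RPM in the Control replicates and 9.87, 9.82 and 10.1 RPM in the TGF-beta1 replicates. The sum over the arms of miR-140 was 3307 to 4522 times as large in Control and 577 to 643 times as large in TGF-beta1. The gap between the hairpins was thus smaller in every treated library than in every Control library, although miR-140 remained by far the more abundant.

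The miRNAs whose pattern over the 6 libraries was most like that of miR-455-3p were found by the root mean square difference of log2(RPM + 1), each row centred on its own mean. They were miR-433-3p (0.16), miR-96-5p (0.24), miR-455-5p (0.25), miR-224-5p (0.26) and miR-182-5p (0.26), where the median over all tested miRNAs was 0.97. Their log2 changes lay between 1.22 and 1.67. The measure takes in the difference between the groups, which was known when the members were chosen. Places in this order and the next therefore restate that difference in part and are no test. MiR-433-3p went from 16.0 ± 0.222 to 44.2 ± 1.24 RPM and miR-224-5p from 12.4 ± 0.724 to 30.1 ± 2.65 RPM (SD, n = 3 each). MiR-140-5p was 153rd and miR-140-3p 251st in this order. The miRNAs most like miR-140-3p were miR-107-3p (0.048), miR-99a-5p (0.050), miR-744-5p (0.052), miR-185-5p (0.053) and miR-301a-5p (0.060), against a median of 0.30, with log2 changes between -0.46 and -0.35. MiR-140-5p was 129th in that order, and the miR-455 strands were 400th and 404th, close to the end of it.

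The other miRNAs described in chondrocytes did not share 1 direction. Of 21 on the list, 20 were among the rows and 18 were tested, of which 1 was called higher and 1 lower, where 4.41% and 7.84% of all tested miRNAs were. The libraries did not overlap for 6 of the 18 with the treated libraries higher and 6 with them lower, against 20.8% and 36.0% of all tested miRNAs. MiR-145-5p, miR-199a-3p and miR-194-5p are also on the lists of cell type markers above. The median log2 change of the chondrocyte list was 0.05, against -0.17 for all tested miRNAs. MiR-495-3p, of the imprinted Dlk1-Dio3 cluster, rose from 1.13 ± 0.354 to 3.39 ± 0.615 RPM (SD, n = 3 each). Its log2 change was 1.05 with an SE of 0.17 (limma adjusted p = 0.00196). MiR-27b-3p, described as a regulator of the cartilage collagenase MMP13, fell from 840.2 ± 49.4 to 221.2 ± 110.2 RPM (SD, n = 3 each). Its log2 change was -2.03 with an SE of 0.29 (limma adjusted p = 0.00105). It had 348.1 RPM in TGF-beta1 replicate 1 and 148.7 and 167.0 in the other two.

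Below the fold change threshold, miR-145-5p, which targets Sox9 and also marks contractile cells, had a change of 0.92 with an SE of 0.16 (limma adjusted p = 0.00235). MiR-29a-3p, miR-29b-3p and miR-29c-3p, which share a seed and target collagens, had log2 changes of 0.21, -0.62 and -0.75 (limma adjusted p = 0.0320, 0.00914 and 0.00214). MiR-146a-5p and miR-675-5p, both described in cartilage, had at most 0.243 and 0.0567 RPM in any library and were not tested. MiR-455-3p and miR-455-5p had higher log2 changes than all 18 tested miRNAs of the list, while miR-140-5p and miR-140-3p lay among them.

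**Figure D4:**
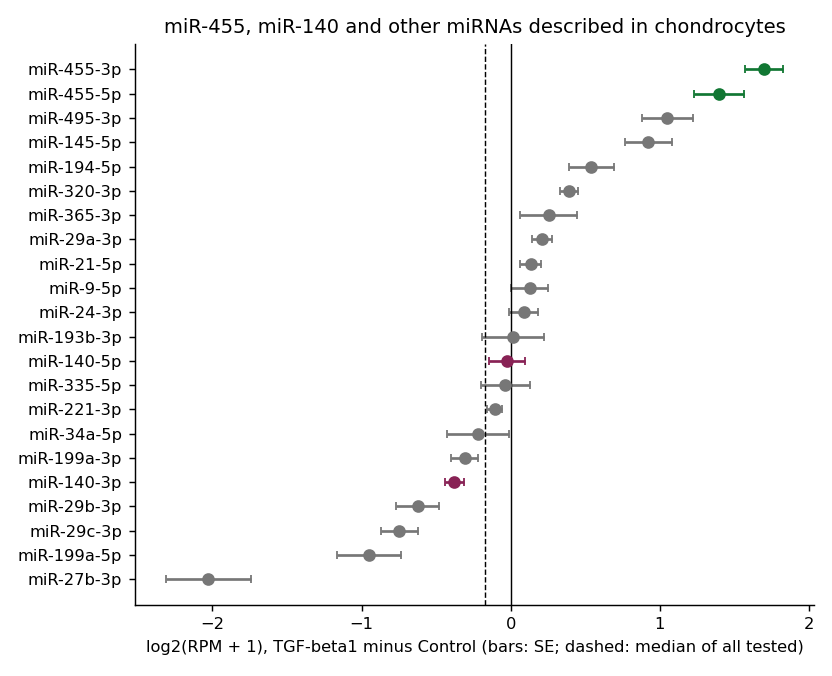
Change of log2(RPM + 1), TGF-beta1 minus Control, with SE, for the 18 tested miRNAs described in chondrocytes in grey and the strands of miR-455 (green) and miR-140 (purple), with a dashed line at the median of all tested miRNAs. The list runs from -2.03 for miR-27b-3p to 1.05 for miR-495-3p, with both miR-455 strands above it.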

How the data were processed

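Small RNA from total RNA of 6 samples was sequenced on an Illumina instrument. The authors trimmed adaptors, removed contaminants, low-quality and very short reads, compared reads with miRBase using Bowtie, and deposited values named TPM that are RPM here, since they carry no scaling by length. How reads matching several miRNAs were counted is not given in the sources used here. Some rows had the same values in all 6 libraries, such as miR-669a-3p and miR-669o-3p, or miR-467a-3p and miR-467d-3p. The same reads can therefore stand in several rows. The share of the total held by the rows, and the numbers of tested miRNAs and of hairpins, can include them repeatedly. From the deposited RPM, whole reads were recovered, and 100% of values were whole within 0.002. A miRNA without reads could still have a level of up to 0.149 to 0.182 RPM (3 reads), depending on the library.

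The members, lists and alternatives were chosen with earlier results of these data known. MiRNAs named are the members, those sharing a seed, those next in level, the 5 most like miR-455-3p and miR-140-3p, and the chondrocyte and cell type lists. Some let-7 hairpins are named beside the arm ranks. Of the table's rows, 601 matched a RefSeq mature sequence by name. NCBIM37 is the build the study used for its other reads, and its coordinates were not converted.

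Changes were fitted with limma 3.58.1 in R 4.3.3, with a trended prior and group as the only term, on log2(RPM + 1). The filterByExpr function of edgeR 4.0.16 (minimum count 10) kept 408 miRNAs, with Benjamini-Hochberg adjustment. Exact intervals are Clopper-Pearson (scipy 1.17.1) at 95%. They describe counting error alone, as reads copied by PCR do not stand for separate molecules. The fits were also run on simulated reads that had the same spread beyond counting error for every miRNA. The spread in these data differs between miRNAs, so that run does not measure how well the fits do here. Alternatives were TMM, median-of-ratios and row-sum scaling, other filters, pseudocounts of 0.1 and 10, a threshold of 2, a replicate block, leaving out each library, and edgeR and DESeq2 1.42.0 on the recovered reads, where edgeR with TMM called 86 miRNAs.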

Additional observations from a re-analysis of the deposited data

How the results depend on the processing

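The direction of both miR-455 strands and of miR-140-3p held under every alternative that gave a value, while that of miR-140-5p, never called, turned with the scaling. For miR-140-3p the change was small beside its SE under some of them, at -0.16 ± 0.14 with DESeq2 and -0.16 ± 0.09 with median-of-ratios scaling. With TMM, median-of-ratios and row-sum scaling the log2 change of miR-455-3p was 1.81, 1.86 and 1.80, and that of miR-140-3p -0.23, -0.16 and -0.24. A pseudocount of 0.1 gave 2.22 for miR-455-3p and 2.25 for miR-455-5p, and a pseudocount of 10 gave 0.55 and 0.32, by construction, which ends the call of both. On reads, edgeR with TMM gave 2.45, 2.46 and, for miR-140-3p, -0.22; edgeR with library totals gave 2.29 and 2.31 for the miR-455 strands; and DESeq2 gave 2.52, 2.54, 0.14 for miR-140-5p and -0.16 for miR-140-3p. With a mean of at least 50 reads miR-455-5p and miR-140-5p were not fitted. Leaving out each library gave 1.63 to 1.73 for miR-455-3p, 1.26 to 1.54 for miR-455-5p, -0.09 to 0.050 for miR-140-5p and -0.44 to -0.35 for miR-140-3p. The arm difference, log2(RPM + 1) of 3p minus 5p, was 0.51 in Control and 0.81 in TGF-beta1 for miR-455 and 12.2 and 11.9 for miR-140. With a pseudocount of 0.1 it was 0.99 in Control and 0.96 in TGF-beta1 for miR-455, and 13.4 and 13.1 for miR-140. In the same order it was 0.089, 0.31, 9.53 and 9.16 with a pseudocount of 10. Without each library it was 0.33 to 0.62, 0.73 to 0.89, 12.1 to 12.4 and 11.85 to 11.93.

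MiRNAs called higher and lower numbered 18 and 32. Median-of-ratios scaling called 31 higher, a pseudocount of 0.1 called 32 and 54, and a pseudocount of 10 called 2 and 15. On reads, edgeR with TMM called 45 higher, edgeR with library totals 32 and 54, and DESeq2 46 higher. Above a log2 change of 2, limma called 0 higher and 6 lower (228 miRNAs had an unadjusted p under 0.05). Leaving out each library gave 15 to 21 higher and 26 to 41 lower. Where the construction of an alternative does not show it, the cause was not tested. The deviations of libraries with the same replicate number had correlations of -0.08, -0.21 and -0.34, and those with different numbers -0.18 to 0.30. Deviations from the mean of 3 libraries are tied to each other, so these correlations cannot decide whether the number pairs libraries. With the replicate block 18 were higher and 32 lower.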
